A study of Mus musculus with 35 samples.

Results

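The microsomal cytochrome P450 genes of families 1 to 3 were described in mouse liver after partial hepatectomy (PH). Every gene whose symbol in the platform's annotation starts with Cyp1, Cyp2 or Cyp3 followed by a letter was taken, through probe sets that carry that symbol alone. This gave 43 of 18193 genes measured: 3 of family 1, 35 of family 2 and 5 of family 3. No filter on low signal was applied, so all 43 entered every test. For the 7 genes with more than 1 probe set, the one with the highest mean over all arrays stood for the gene.

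Cytochrome P450 enzymes of these families are haem proteins of the endoplasmic reticulum that insert oxygen into drugs, toxins, steroids and fatty acids, using electrons passed on by a reductase and by cytochrome b5. In the liver most of them are made mainly by hepatocytes, and many are confined to one end of the lobule. Ligand-activated receptors raise subsets of them. The aryl hydrocarbon receptor acts on family 1 and the constitutive androstane receptor CAR on some Cyp2b and Cyp2c genes. The pregnane X receptor PXR acts on Cyp3a genes, while liver-enriched factors such as HNF4 alpha and C/EBP alpha set basal levels. Hepatectomy and inflammation are both known to lower P450 activity in rodent liver.

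Liver RNA of 35 samples was measured on whole-genome Affymetrix mouse arrays, 1 array a sample, in 14 groups of male mice of the CB6F1 hybrid strain. Young mice were 5 to 6 months old and came from Jackson Laboratories, and old mice were 25 to 27 months old and came from the National Institute on Aging, so age and supplier cannot be told apart. Untreated livers (0 h) gave 3 arrays at each age. After removal of 70% of the liver mass, the remnant was taken at 24, 38 and 48 h, with 3 arrays for each age and time. Sham surgery, in which the liver was handled and not resected, gave 2 young arrays at 24 h, 1 at 38 h and 2 at 48 h, and 2 old arrays at each time. The operated mice of both kinds had avertin and isoflurane anaesthesia, and the 0 h livers are labelled as having no treatment. The labels do not say that the arrays of a group are separate animals, so the p-values measure the spread between these samples, which may be technical.

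Signals are log2 values, so a difference of 1 is a doubling. Each difference below is given with the standard error of a limma model fitted to all 35 arrays, and a gene passed when its p-value, adjusted by Benjamini-Hochberg over the 18193 genes, was under 0.05. The share of all genes that passed is printed beside the count for the P450 genes in the main comparisons. Counts at an unadjusted p under 0.05, and some counts with arrays left out or with other fits, are given without such a share. Those counts cannot be set against a background. Signals of different probe sets were not ranked against each other, since probes differ in brightness. The livers carried the hepatocyte markers throughout: the mean of Alb, Apoa1, Ttr, Tat, Apob and Hnf4a lay between 14.02 and 14.28 on every array. Correlations between arrays over all genes ran from 0.922 to 0.997. The array farthest from its group was old PH 38 h replicate 3, with a median correlation of 0.946 with the other arrays of its group, followed by old PH 24 h replicate 1 with 0.9645. The other arrays of these groups had 0.9802 and 0.971 at 24 h and 0.9687 and 0.9699 at 38 h. Those medians include the correlation with the array named for the group. Arrays of all other groups with more than 1 array were at 0.9878 or above. The 2 named arrays carry low P450 signals, so counts for the old PH groups and calls on named members are also given without these 2 arrays. In whole liver RNA, fewer hepatocytes and less P450 RNA in each hepatocyte cannot be told apart.

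The P450 signals were lower after PH than at 0 h on every PH array when averaged. Over the 29 members whose mean signal is at or above that of the median gene (8.07), the mean difference from the 0 h arrays of the same age was -0.40, -0.29 and -0.34 on the young arrays of PH 24 h. It was -0.54, -0.53 and -0.34 at 38 h and -0.67, -0.18 and -0.50 at 48 h. The old arrays of PH 24 h were lower, at -1.14, -0.79 and -0.71. Those of PH 38 h stood far apart from each other, at -0.22, -0.38 and -1.26, the last being replicate 3, and those of PH 48 h were at -0.50, -0.44 and -0.27. Sham arrays lay between -0.28 and -0.02, overlapping the PH range at its upper end. The mean over all genes stayed between -0.06 and 0.02 on every array.

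**Figure D1:**
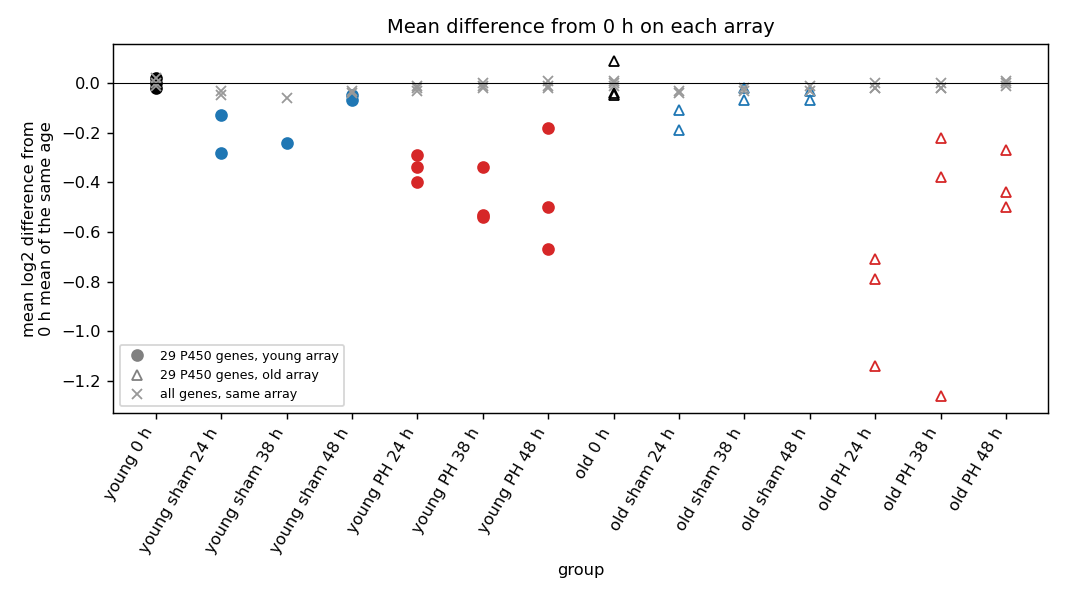
Mean log2 difference from the 0 h arrays of the same age on each of the 35 arrays, for the 29 brighter P450 genes (circles, young; open triangles, old; black 0 h, blue sham, red PH) and for all genes (grey crosses). Sham arrays lie between -0.28 and -0.02, the 3 old PH 24 h arrays between -1.14 and -0.71, and old PH 38 h replicate 3 is the lowest at -1.26.

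**Figure D2:**
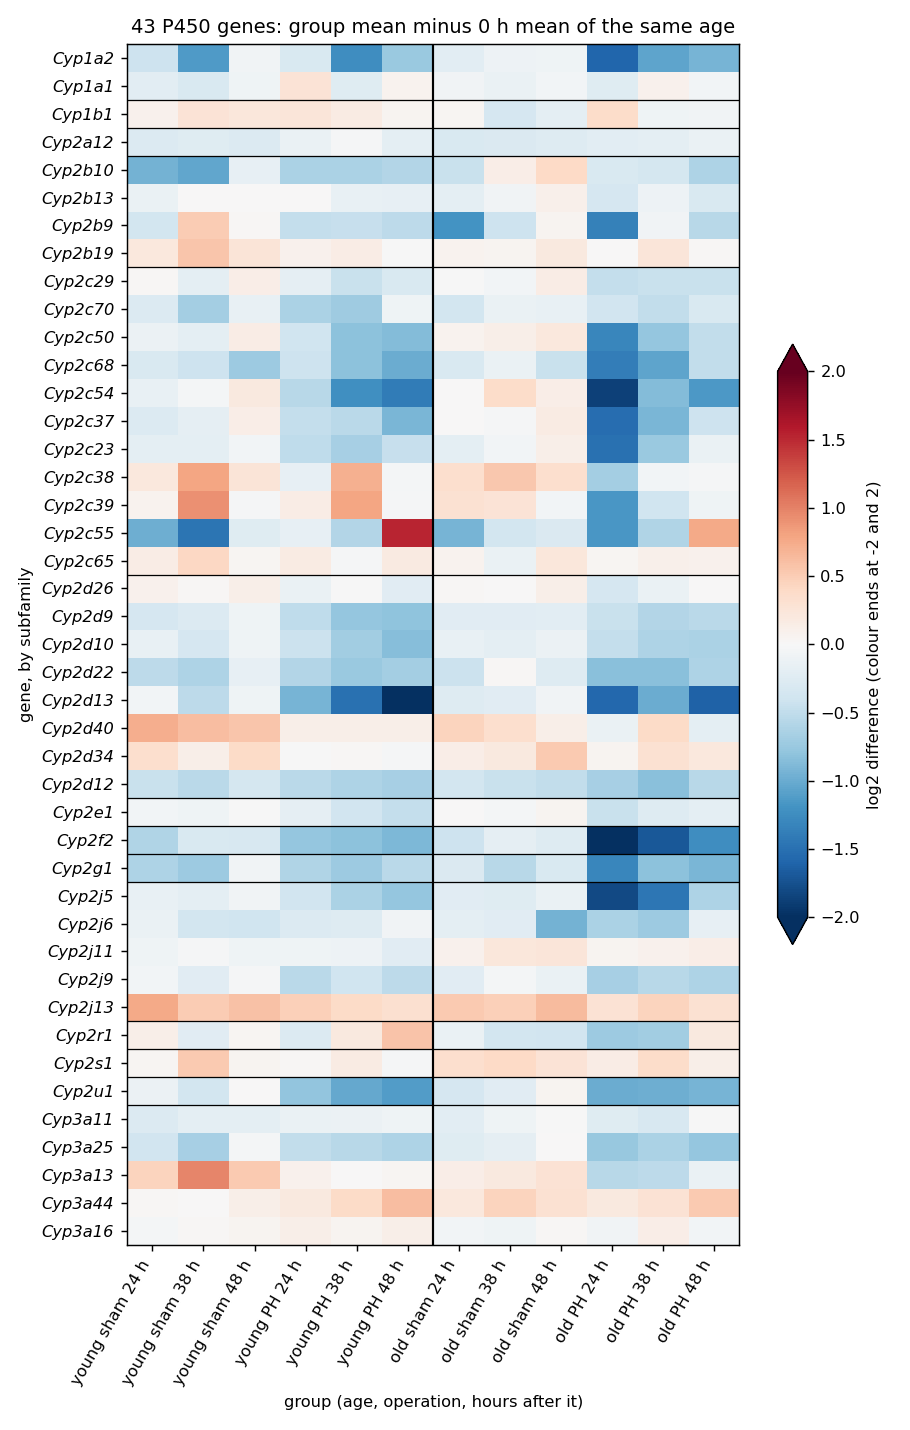
Group mean minus the 0 h mean of the same age for each of the 43 P450 genes (rows, by subfamily), in the 12 sham and PH groups (columns), as a log2 difference whose colours end at -2 and 2. Blue fills most of the PH columns and is deep for Cyp2d13 in young PH 48 h and for Cyp2f2, Cyp2j5 and Cyp2c54 in old PH 24 h, while Cyp2j13 and Cyp3a44 are red there and Cyp2c55 is red at 48 h.

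PH was first set against the matching sham arrays, which asks what the loss of liver tissue changed beyond the operation. In young livers at 24 h none of the 43 P450 genes passed, where 0.709% of all genes did. Unadjusted p was under 0.05 for 10 members (the share of all genes at that threshold is not given), and the median difference was -0.12. At 38 h, where the sham group is a single array, 2 members were lower and none higher (1.47% of all genes were lower): Cyp3a13 (-0.98 ± 0.20) and Cyp2c65 (-0.45 ± 0.12). At 48 h 13 members (30.2%) were lower where 7.3% of all genes were, and 2 were higher where 11.1% of all genes were, with a median of -0.40 over the 43. The fall at 48 h was largest in Cyp2d13, Cyp2c54, Cyp2u1 and Cyp2c50, and the members that rose were Cyp2c55 and Cyp3a44.

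The count at 48 h rested on single arrays: it was 4 (all lower) without young sham 48 h replicate 1, 6 without sham replicate 2 and 5 without PH replicate 1, where 7.13%, 10.0% and 10.9% of all genes passed. Cyp2d10, Cyp2d13, Cyp2d9 and Cyp2u1 passed whichever array of the 2 groups was left out. At 38 h 1 member passed without young PH 38 h replicate 2.

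In old livers at 24 h 12 members (27.9%) were lower than in sham, where 3.8% of all genes were, and none was higher. They were Cyp2c54, Cyp2f2, Cyp2c37, Cyp1a2, Cyp2c50, Cyp2d13, Cyp2g1, Cyp3a13, Cyp2u1, Cyp2c29, Cyp2e1 and Cyp2d10. At 38 h 6 members were lower, where 2.49% of all genes were: Cyp2f2, Cyp2d22, Cyp2u1, Cyp3a13, Cyp2j9 and Cyp2d10. At 48 h 8 members (18.6%) were lower, where 6.56% of all genes were, and 1, Cyp2j6, was higher, where 8.46% of all genes were.

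These counts also moved with single arrays. Fitting only the arrays compared ended every call at 24 h and at 38 h (0 members, with 0.0055% and 0.0% of all genes passing), and at 48 h it gave 17 members, where 24.8% of all genes passed. At 24 h the count was 2 without either old sham 24 h array (2.83% and 3.1% of all genes), 5 without old PH 24 h replicate 1 (4.29%) and 13 without the pair of divergent arrays (where 10.9% of all genes passed). At 38 h it was 1 or 2 without old sham 38 h replicate 1 or 2 (1.9% and 0.528% of all genes), 10 without old PH 38 h replicate 1 (5.73%), 3 without its replicate 3 (3.02%) and 5 without the divergent pair (5.14%). At 48 h it was 4 or 5 without old sham 48 h replicate 1 or 2 (6.35% and 4.99%), 5 without old PH 48 h replicate 2 (9.7%) and 16 (2 higher, 14 lower) without the divergent pair (where 23.4% of all genes passed), which are arrays of the other times and enter through the shared spread.

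At 48 h the young and old comparisons use different arrays throughout, and they named many of the same genes. Cyp2c29, Cyp2d10, Cyp2d13, Cyp2j9, Cyp2u1 and Cyp3a25 were lower in both, which is 46.2% of the 13 that fell in young livers and 75.0% of the 8 that fell in old. Across the 43 genes, which share arrays within an age, the young and old differences correlated with r = 0.90 at 48 h, against 0.39 at 24 h and 0.33 at 38 h. Both differences lay below 0 for 32 genes at 48 h, 29 at 24 h and 27 at 38 h. The matching overlap and correlation over all genes are not given, so this agreement is not read as particular to the P450 genes.

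**Figure D3:**
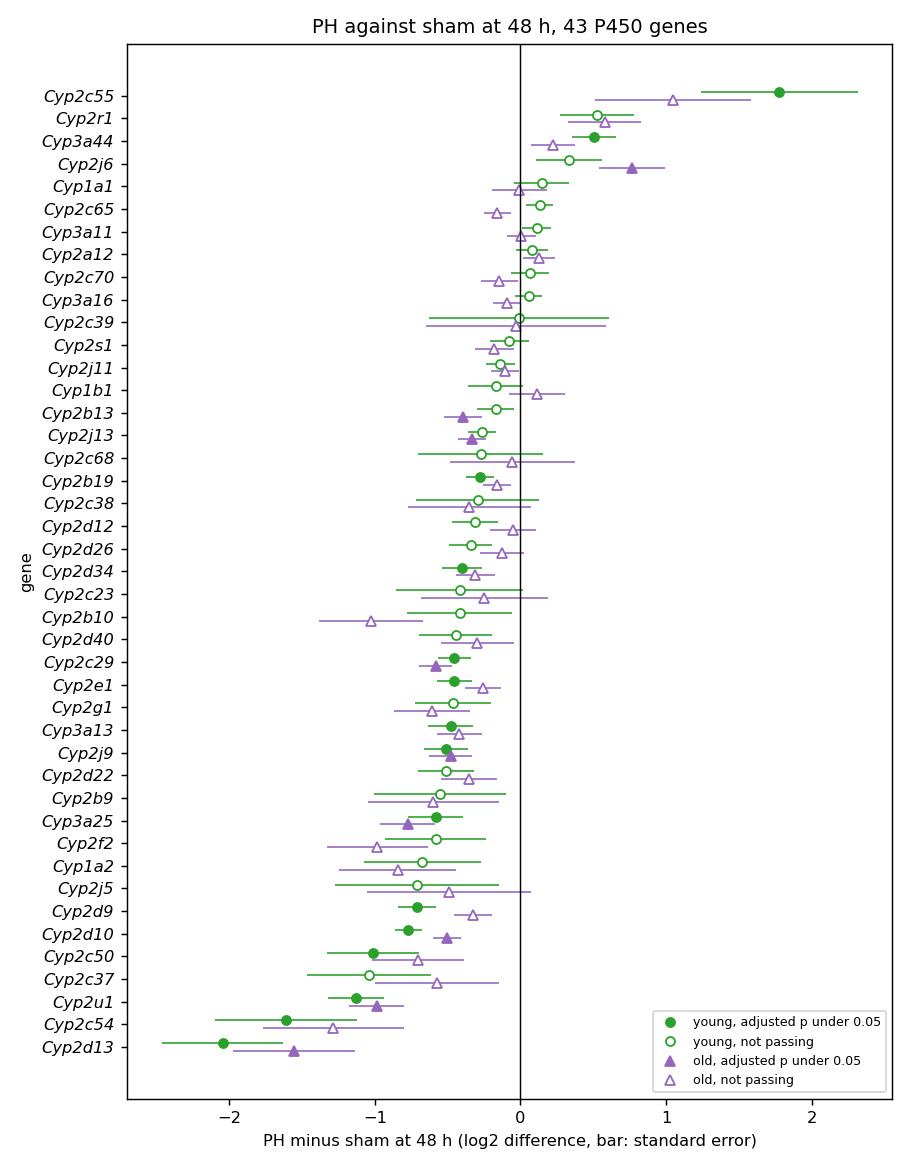
PH minus sham at 48 h for each of the 43 P450 genes, as a log2 difference with its standard error, in young (green circles) and old livers (purple triangles); filled symbols have an adjusted p under 0.05. Young and old values lie close together for most genes, with Cyp2d13 and Cyp2c54 lowest and Cyp2c55 highest at both ages.

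The genes of family 1 encode enzymes that oxidise planar aromatic compounds and are classic targets of the aryl hydrocarbon receptor. Cyp1a2, which clears caffeine and is abundant around the central vein, read 13.30, 13.23 and 13.20 on the old 0 h arrays, 13.14 and 12.93 on the old sham 24 h arrays and 11.41, 11.97 and 11.56 on those of PH 24 h. All 3 old PH 24 h arrays lay below every other old array of 0 h and 24 h. The difference from sham was -1.39 ± 0.40 (adjusted p = 0.028), or -1.27 ± 0.40 without the divergent pair. Young PH 24 h arrays read 13.30, 13.36 and 13.06 against 13.13 and 13.13 in sham, and the groups overlapped. In young livers at 38 h 2 PH arrays were low and 1 was not, with 11.78, 11.95 and 13.17, but the single sham array was itself low at 12.42. The old PH 38 h arrays were spread just as widely, at 13.12, 12.02 and 11.43. That fall from 0 h (-1.05 ± 0.36) did not pass without the divergent pair (-0.67 ± 0.36, adjusted p = 0.151).

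Cyp1a1, the inducible partner of Cyp1a2, passed in none of the PH comparisons with sham or 0 h. Its signal ran 8.88, 8.56 and 8.13 in young PH 24 h and 7.74, 7.82 and 8.03 in old PH 24 h, with no overlap, and only this age difference passed (-0.66 ± 0.17). Cyp1b1, which hydroxylates oestradiol and is made mainly outside hepatocytes, read 7.62, 7.26 and 7.22 and 7.93, 7.67 and 8.23 in the same groups. This probe set was higher in old livers (0.58 ± 0.17, adjusted p = 0.0422), and the old 0 h arrays (7.28, 7.86 and 7.61) also lay above the young ones (7.06, 7.21 and 7.11). Without the divergent pair that difference was 0.58 ± 0.19 (adjusted p = 0.0623). The direction depended on the probe set: another of near equal mean signal (7.33) was lower in old livers (-0.36 ± 0.11, adjusted p over all probe sets = 0.0499). The remaining one, much dimmer (mean 4.66), was higher (0.26 ± 0.07, adjusted p = 0.0379). No direction is given for the gene.

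Of the Cyp2b genes, Cyp2b10 is the standard readout of CAR, the receptor that phenobarbital activates. Its brightest probe set passed in none of the 23 comparisons, and the arrays scattered widely within groups, with 10.00, 10.54 and 9.54 in young 0 h and 9.51 and 8.66 in young sham 24 h. In old livers at 48 h PH read 8.47, 8.18 and 8.39 against 9.51 and 9.24 in sham, without overlap, a difference of -1.03 ± 0.36 with an adjusted p of 0.0547. Of its other probe sets, that of mean 8.66 was lower there, with -1.58 ± 0.52 against sham (adjusted p = 0.0469) and -1.37 ± 0.46 against 0 h (adjusted p = 0.0484), and that of mean 8.78 gave -1.48 ± 0.54 against sham (adjusted p = 0.0743). Cyp2b9 and Cyp2b13, which are higher in female than in male mouse liver, were lower in old PH 24 h than at 0 h, with -1.35 ± 0.40 and -0.33 ± 0.12. Without the divergent pair these were -1.48 ± 0.37 and -0.35 ± 0.13, and Cyp2b13 no longer passed (adjusted p = 0.0591). The old 0 h arrays of Cyp2b9 read 8.54, 8.62 and 7.46, those of PH 24 h 7.12, 6.75 and 6.70, but the sham arrays were near the latter at 6.57 and 7.48. Cyp2b13 was also lower than sham at 48 h in old livers (-0.40 ± 0.13), with 7.57, 7.32 and 7.25 in PH, overlapping the sham values of 8.02 and 7.53. Cyp2b19, an arachidonic acid epoxygenase of skin, had dim signals between 5.78 and 6.47 and was lower than sham at 48 h in young livers (-0.28 ± 0.10).

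The Cyp2c subfamily, on chromosome 19, has 11 members here, most of which oxidise arachidonic acid and other fatty acids. Their changes after PH differed in direction, and 4 upstream sequences are shown to set genes that fell beside the one that rose: Cyp2c37 and Cyp2c50, which fell steeply in old livers at 24 h, Cyp2c29, which fell less, and Cyp2c55, which rose in young livers at 48 h. Each is the 150 bases before the start of the RefSeq gene record, all on the + strand of build GRCm38.p6, written 5′ to 3′. Capitals mark matches to CAAAGTNCA, a core of the HNF4 binding motif, searched on both strands. The windows lie at chr19:39992274-39992423 (Cyp2c37), chr19:40089529-40089678 (Cyp2c50), chr19:39286894-39287043 (Cyp2c29) and chr19:39006790-39006939 (Cyp2c55).
Cyp2c37: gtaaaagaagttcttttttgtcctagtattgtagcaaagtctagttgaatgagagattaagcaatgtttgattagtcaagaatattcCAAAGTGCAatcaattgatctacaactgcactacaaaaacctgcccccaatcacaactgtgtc
Cyp2c50: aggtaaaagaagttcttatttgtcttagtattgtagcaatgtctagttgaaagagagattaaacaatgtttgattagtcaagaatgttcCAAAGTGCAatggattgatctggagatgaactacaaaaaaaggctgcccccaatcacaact
Cyp2c29: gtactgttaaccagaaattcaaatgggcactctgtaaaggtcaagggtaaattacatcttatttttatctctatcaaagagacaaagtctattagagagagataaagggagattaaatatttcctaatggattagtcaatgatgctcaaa
Cyp2c55: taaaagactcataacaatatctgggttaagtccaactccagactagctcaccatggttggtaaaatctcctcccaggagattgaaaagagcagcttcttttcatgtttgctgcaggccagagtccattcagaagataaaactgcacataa

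Cyp2c37 and Cyp2c50 share 131 of 150 bases when aligned (87.3%), and both hold the motif, from 63 to 55 bases before the start in Cyp2c37 and from 61 to 53 in Cyp2c50. The other pairs share 41.3% to 45.3%, and the windows of Cyp2c29 and Cyp2c55 hold no such match. The windows of Cyp2c29 and Cyp2c55 end upstream of the start that RefSeq's promoter sequences use. They need not cover the same stretch as those of Cyp2c37 and Cyp2c50. Neither the low share nor the missing match is therefore read as a difference between promoters. RefSeq promoters matched 35 of the 43 members, and 9 of them (25.7%) hold CAAAGTNCA in the 250 bases before the start used in RefSeq's promoter sequences (which for Cyp2c29 and Cyp2c55 lies downstream of the gene record's start), against 326 of 27025 promoters of all genes (1.21%). The 9 are Cyp2c37, Cyp2c50, Cyp2c65, Cyp2c68, Cyp2c70, Cyp2d26, Cyp3a11, Cyp3a16 and Cyp3a44. Genes of a subfamily arose by duplication, so their promoters are not separate cases. Matches to TTGCNNAA, a C/EBP motif, were in 7 of the members' 35 promoters and 9.55% of all, and to TTANGTAA, a motif of Dbp and its relatives, in 2.86% and 2.11%. GCGTG, the core of the aryl hydrocarbon receptor motif, was in 17.1% and 28.2%, and a motif of HNF1 in none and 0.411%. A match describes letters and not binding: among the 9, Cyp2c37 and Cyp2c50 fell in old livers at 24 h while Cyp3a16 and Cyp2d26 passed in no comparison. Cyp2c54, which had the steepest fall of the subfamily, is not among the 9, and its window is not shown. Whether its promoter is among the 35 matched is not given.

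The steepest fall in the subfamily was that of Cyp2c54. In old livers it read 13.03, 13.15 and 13.11 at 0 h, 13.24 and 12.97 in sham 24 h and 11.30, 11.22 and 11.18 in PH 24 h, where all 3 PH arrays were close together and lay far below the others. The difference from sham was -1.87 ± 0.49 (3.66-fold lower, adjusted p = 0.0167), or -1.90 ± 0.44 without the divergent pair. At 38 h the old PH arrays split, with 13.02, 12.71 and 10.98, and at 48 h they read 11.26, 11.96 and 12.63. Young PH 48 h arrays were also spread, at 10.59, 12.69 and 11.96, all below the sham values of 13.40 and 13.31, with a difference of -1.61 ± 0.49.

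Cyp2c37 and Cyp2c50 were also lower in old PH 24 h. Cyp2c37 read 11.03, 11.41 and 11.25 in old PH 24 h against 12.98 and 12.56 in sham (-1.54 ± 0.43), and Cyp2c50 read 11.91, 12.05 and 12.30 against 13.61 and 13.31 (-1.37 ± 0.32). Neither overlapped its sham arrays, and without the divergent pair the values were -1.44 ± 0.32 and -1.28 ± 0.25. In young livers at 48 h Cyp2c50 read 11.99, 13.16 and 12.68 against 13.59 and 13.66 and fell by 1.01 on the log2 scale, while Cyp2c37 (10.73, 12.50 and 11.74 against 12.62 and 12.78) did not pass at -1.04 ± 0.43 (adjusted p = 0.0918). For both genes PH 48 h replicate 1 was the lowest young array. Cyp2c29, a CAR target, changed by less. It read 13.39, 13.40 and 13.51 in old PH 24 h against 13.83 and 13.95 in sham (-0.46 ± 0.11, or -0.43 ± 0.12 without the divergent pair), and 13.31, 13.56 and 13.53 at 48 h against 13.99 and 14.11 (-0.58 ± 0.11). In young livers at 48 h its difference was -0.45 ± 0.11.

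Cyp2c55, a CAR and PXR target found in liver and gut, was the member that rose most. Young PH 48 h arrays read 10.93, 11.26 and 10.56, against 9.04 and 9.24 in sham and 9.44, 9.30 and 9.43 at 0 h, so all 3 lay above every other young array. The difference from sham was 1.78 ± 0.54 (3.43-fold higher, adjusted p = 0.0231). Old PH 48 h arrays read 10.20, 9.56 and 9.08, above the sham values of 8.37 and 8.76 too, but the difference of 1.05 ± 0.54 had an adjusted p of 0.187. At 24 h the old PH arrays were low instead, at 7.07, 7.48 and 8.48, against 9.32, 8.59 and 8.63 at 0 h (-1.17 ± 0.48, adjusted p = 0.0788).

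Among the other Cyp2c genes, Cyp2c23 (also called Cyp2c44), an arachidonic acid epoxygenase, fell from 0 h in old livers at 24 h (-1.49 ± 0.39), with 10.30, 10.81 and 11.45 against 12.44, 12.33 and 12.27. Cyp2c68 read 11.19, 11.82 and 12.97 against 13.46, 13.21 and 13.44 in the same groups (-1.38 ± 0.38). Without the divergent pair the differences were -1.21 ± 0.26 and -0.98 ± 0.23. Cyp2c70, which makes the muricholic acids of mouse bile, fell from 0 h in young livers at 24 and 38 h (-0.62 ± 0.12 and -0.71 ± 0.12) and read 13.48, 13.41 and 13.14 and 13.15, 13.14 and 13.48 there, against 13.90, 13.99 and 14.01 at 0 h. At 48 h it read 14.10, 13.98 and 13.59, of which 2 arrays were back within or above the 0 h range, and it did not pass (-0.08 ± 0.12). Cyp2c65, a gut gene with dim signals from 5.18 to 5.79, was lower than the single young sham 38 h array. Cyp2c38 and Cyp2c39, the latter a retinoic acid hydroxylase, passed nowhere. Cyp2c39 scattered most within groups of all 43 members, as in old PH 24 h with 8.36, 10.57 and 9.55, and its residual SD of 0.726 was above that of 99.3% of all genes.

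The Cyp2d subfamily has 8 members here. Cyp2d10, a liver-expressed gene of the subfamily, gave the evenest falls: 12.57, 12.78 and 12.82 in young PH 48 h against 13.55 and 13.43 in sham (-0.77 ± 0.10, adjusted p = 3.97e-06), and 12.79, 12.92 and 13.12 in old against 13.37 and 13.53 (-0.50 ± 0.10). No PH array reached a sham array in either pair. In old livers it was also lower than sham at 24 h (-0.33 ± 0.10) and 38 h (-0.42 ± 0.10), and without the divergent pair these were -0.32 ± 0.11 (adjusted p = 0.0588) and -0.42 ± 0.11. Cyp2d9, the male-enriched testosterone hydroxylase, read 13.10, 13.39 and 13.17 in young PH 48 h against 13.98 and 13.88 in sham (-0.71 ± 0.13). In old livers at 48 h it read 13.50, 13.20 and 13.60 against 13.54 and 13.98, which overlap, and did not pass (-0.33 ± 0.13).

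The largest young difference of all members was in Cyp2d13, which RefSeq lists as a transcribed pseudogene. It read 10.63 and 10.88 in young sham 48 h and 7.80, 9.55 and 8.78 in PH (-2.05 ± 0.42, 4.13-fold lower), and in old livers 10.37 and 10.39 and 8.22, 8.73 and 9.52 (-1.56 ± 0.42). The groups did not overlap at either age. Old PH 24 h arrays read 8.69, 8.60 and 9.35 against 10.16 and 10.23 (-1.31 ± 0.42, or -1.22 ± 0.38 without the divergent pair), and young PH 24 h arrays 9.70, 9.77 and 10.28 against 10.84 and 10.71, a difference of -0.87 ± 0.42 that did not pass. Its other probe set gave -1.88 ± 0.26 in young and -1.36 ± 0.26 in old livers at 48 h.

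Cyp2d22, the mouse gene closest in function to the human drug-metabolizing CYP2D enzyme, was lower than sham in old livers at 38 h (-0.87 ± 0.19, or -0.61 ± 0.14 without the divergent pair), with 11.62, 11.54 and 10.79 against 11.99 and 12.38. It had also fallen after sham surgery alone in young livers (-0.43 ± 0.16 against 0 h). Cyp2d12 did the same at both ages (-0.45 ± 0.13 young, -0.43 ± 0.12 old), and it passed against sham in no PH group. Cyp2d34 and Cyp2d40 moved the other way after sham: Cyp2d40 was higher than 0 h in young livers (0.63 ± 0.20), and Cyp2d34 in old (0.29 ± 0.11). Cyp2d34 was then lower in young PH 48 h than in sham (-0.40 ± 0.14), with PH arrays at 7.38, 7.41 and 7.54 that lay where the 0 h arrays did (7.41, 7.42 and 7.54). Cyp2d26 passed nowhere, with a range of 13.08 to 13.83 over all 35 arrays.

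Cyp2e1, which oxidises ethanol and paracetamol and sits around the central vein, changed by little but evenly. Young PH 48 h arrays read 13.80, 14.18 and 14.05 against 14.46 and 14.47 in sham (-0.45 ± 0.12), and old PH 24 h arrays 13.92, 13.77 and 14.13 against 14.41 and 14.36 (-0.45 ± 0.12, or -0.44 ± 0.12 without the divergent pair). Neither pair overlapped. Cyp2f2, a periportal enzyme known for activating naphthalene, gave the largest difference from 0 h of all members in old livers. It read 14.16, 14.09 and 14.07 at 0 h, 13.56 and 13.85 in sham 24 h and 11.49, 11.74 and 12.94 in PH 24 h. Every old PH 24 h array was below the lowest sham array, and replicate 3 was the highest of them. The difference from sham was -1.65 ± 0.35 (adjusted p = 0.00499), and that from 0 h -2.05 ± 0.31 (4.14-fold lower). At 38 h it was -1.52 ± 0.35 against sham, and without the divergent pair -1.36 ± 0.26 at 24 h and -1.04 ± 0.26 at 38 h. Young PH 24 h arrays read 13.49, 13.48 and 13.35, just below the sham values of 13.67 and 13.55 (-0.17 ± 0.35, adjusted p = 0.915). Cyp2g1, an olfactory P450 with dim signals here, was lower than sham in old PH 24 h (-1.01 ± 0.26, or -0.93 ± 0.29 without the divergent pair), at 6.19, 6.18 and 6.67 against 7.77 and 6.95.

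**Figure D4:**
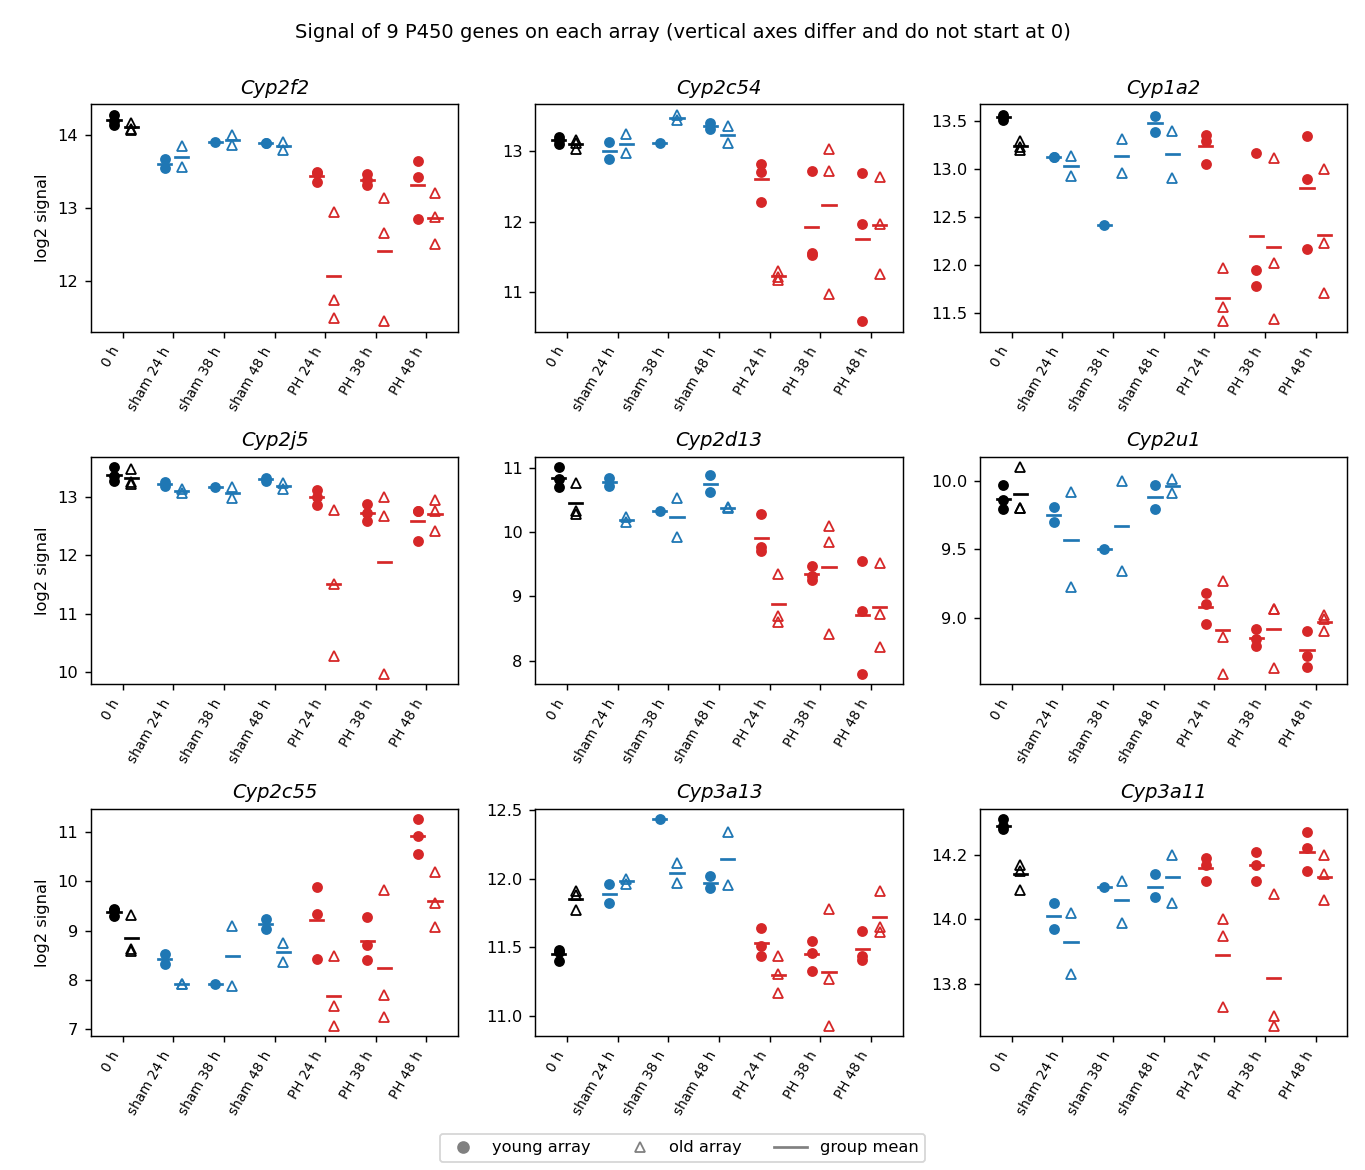
Log2 signal of 9 P450 genes on each array, by operation and time (horizontal axis), in young (filled circles) and old livers (open triangles), with bars at the group means; vertical axes differ and do not start at 0. Old PH 24 h arrays are low for Cyp2f2, Cyp2c54 and Cyp1a2, old PH 38 h arrays are spread widely for Cyp2j5 and Cyp2c54, and all young PH 48 h arrays are high for Cyp2c55.

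Of the Cyp2j genes, fatty acid epoxygenases, Cyp2j5 had the widest spread between PH arrays. It read 10.27, 11.50 and 12.77 in old PH 24 h and 12.68, 13.00 and 9.97 in PH 38 h, against 13.48, 13.22 and 13.25 at 0 h. The divergent pair, replicate 1 at 24 h and replicate 3 at 38 h, gave the lowest value of each group. The falls from 0 h were -1.81 ± 0.50 and -1.43 ± 0.50, and without the pair -1.18 ± 0.22 and -0.48 ± 0.22 (adjusted p = 0.0984 at 38 h). Cyp2j9 had dim signals and moved evenly, -0.51 ± 0.15 against sham in young and -0.48 ± 0.15 in old livers at 48 h. Cyp2j13 stood out in direction: young 0 h arrays read 6.25, 6.49 and 6.27, while all other young arrays lay between 6.51 and 7.12. It rose after sham surgery at both ages (0.62 ± 0.08 young, 0.55 ± 0.07 old) and was above 0 h after PH too. Old PH 48 h arrays were lower than sham (-0.34 ± 0.10). Cyp2j6 was higher in old PH 48 h than in sham (0.77 ± 0.23), with 9.16, 9.02 and 8.88 against 7.99 and 8.51. On this probe set the 0 h arrays read 9.35, 9.06 and 9.15. The other Cyp2j6 probe set, about as bright, gave 0.24 ± 0.20 against sham (adjusted p = 0.454) and was lower than 0 h (-0.95 ± 0.18, adjusted p = 0.000677), so the rise over sham rests on 1 probe set. Cyp2j11 passed nowhere.

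Cyp2u1, which oxidises long-chain fatty acids at their end, had no overlap between young PH arrays and the other young arrays. All 9 young PH arrays lay between 8.64 and 9.18, and all young 0 h and sham arrays between 9.50 and 9.97. Old PH arrays lay between 8.59 and 9.27, and the lowest old sham array, at 24 h, read 9.22. The differences from sham were -1.13 ± 0.19 in young and -0.99 ± 0.19 in old livers at 48 h, -0.66 ± 0.19 in old at 24 h and -0.76 ± 0.19 at 38 h. Without the divergent pair the values at 24 and 38 h were -0.50 ± 0.19 (adjusted p = 0.0846) and -0.61 ± 0.19 (adjusted p = 0.055). A second, dimmer probe set (mean 7.05) gave smaller differences that did not pass, -0.19 ± 0.19 in young (adjusted p = 0.541) and -0.22 ± 0.19 in old livers at 48 h (adjusted p = 0.446). In young livers at 24 h, 8.95, 9.10 and 9.18 in PH against 9.81 and 9.70 in sham gave -0.68 ± 0.19 with an adjusted p of 0.096. Cyp2r1, the vitamin D hydroxylase of liver, was lower than 0 h in old PH 24 h (-0.72 ± 0.23, or -0.64 ± 0.18 without the divergent pair), at 8.32, 8.77 and 8.39 against 9.33, 9.31 and 9.01. At 48 h its PH arrays were above sham in both ages, at 9.70, 9.33 and 9.28 against 9.02 and 8.81 in young and 9.17, 9.56 and 9.53 against 8.83 and 8.85 in old livers, and neither difference passed (0.53 ± 0.25 and 0.58 ± 0.25). Cyp2s1, a P450 of epithelia outside the liver, was higher after sham than at 0 h in old livers (0.34 ± 0.10). Cyp2a12, a steroid hydroxylase, was lower after sham at both ages (-0.27 ± 0.09 young, -0.28 ± 0.09 old) and passed in no PH comparison, with all arrays between 12.94 and 13.57.

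Cyp3a11 is the main drug-oxidising Cyp3a enzyme of mouse liver and a PXR target. It passed in no comparison of PH with sham. Its arrays lay between 13.67 and 14.31, with 14.27, 14.22 and 14.15 in young PH 48 h and 14.07 and 14.14 in sham. In old PH 38 h it read 14.08, 13.70 and 13.67, against 14.17, 14.21 and 14.12 in young, without overlap (-0.35 ± 0.09 for old minus young, adjusted p = 0.0356), and without the divergent pair the difference was -0.28 ± 0.09 (adjusted p = 0.13). Cyp3a25 fell against sham at 48 h at both ages, with 12.92, 13.45 and 13.18 against 13.84 and 13.69 in young (-0.58 ± 0.19) and 12.99, 12.87 and 13.24 against 13.78 and 13.83 in old livers (-0.78 ± 0.19).

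Cyp3a13 differed in where its change lay. Young arrays read 11.47, 11.48 and 11.40 at 0 h, 11.96 and 11.82 in sham 24 h, 12.43 in sham 38 h and 11.93 and 12.02 in sham 48 h, a rise of 0.65 ± 0.13 after sham. Young PH arrays lay near those of 0 h, with 11.33, 11.46 and 11.55 at 38 h and 11.44, 11.62 and 11.41 at 48 h. In old livers 0 h read 11.91, 11.77 and 11.88, sham 24 h 12.00 and 11.96 and PH 24 h 11.17, 11.31 and 11.44, so PH lay below both (-0.68 ± 0.16 against sham, -0.55 ± 0.14 against 0 h). Without the divergent pair these were -0.61 ± 0.14 and -0.48 ± 0.13. Cyp3a44, higher in female mouse liver, rose in young PH 48 h to 7.10, 7.16 and 7.48 from 6.73 and 6.75 in sham (0.51 ± 0.15). Old PH 48 h arrays at 6.65, 6.90 and 7.33 overlapped sham (0.22 ± 0.15, adjusted p = 0.318). Cyp3a16, a fetal form, stayed between 3.89 and 4.33 on all arrays, near the lowest value of the whole table (3.63), and passed nowhere.

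Compared with untreated liver, PH combines resection with the operation itself. The 3 PH groups of an age share the same 0 h arrays, so their counts are not separate evidence. In young livers 8 members were lower at 24 h (9.56% of all genes), 16 at 38 h (16.5%) and 13 at 48 h (14.5%), and 1, 2 and 3 were higher (7.82%, 15.2% and 13.4% of all genes). At 24 h 18.6% of the members were thus lower, at 38 h 37.2% and at 48 h 30.2%. The count was 11 at 38 h without young 0 h replicate 1 and 10 at 48 h without PH replicate 1. In old livers 26 members (60.5%) were lower at 24 h, where 12.6% of all genes were, and 1 was higher, where 11.7% of all genes were. At 38 h 20 (46.5%) were lower and 3 higher (16.6% and 21.9% of all genes), and at 48 h 11 (25.6%) were lower and 2 higher (8.62% and 8.28%). The counts in either direction were 25 at 24 h, 16 at 38 h and 17 at 48 h without the divergent pair, where 22.1%, 36.2% and 25.1% of all genes passed. At 38 h the members' share in either direction (37.2%) was then near that of all genes, with 13 members lower and 3 higher. The shares of all genes by direction are not given for that fit. The calls lost without the pair were Cyp2b13 and Cyp3a11 at 24 h and Cyp1a2, Cyp2c50, Cyp2c68, Cyp2d13, Cyp2j5, Cyp2j6 and Cyp2r1 at 38 h. The count at 38 h was 14 without old 0 h replicate 2 (28.9% of all genes) and 15 without PH replicate 3 (31.0%).

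At old PH 24 h 7 of 11 Cyp2c members, 5 of 8 Cyp2d, 3 of 5 Cyp2j and 3 of 5 Cyp3a were lower than at 0 h. Of the brighter 29 members 21 were lower and none higher, with a median of -0.72, and of the 14 dimmer ones 5 were lower and 1 higher, with a median of -0.03. The members lower there included Cyp2f2, Cyp2c54, Cyp2j5, Cyp1a2, Cyp2d13 and Cyp2c37, each by more than 1.5 on the log2 scale, and the 1 that was higher was Cyp2j13 (0.29 ± 0.09). Markers of other cells moved in this group as well. Both neutrophil markers measured, S100a8 and S100a9, were higher than at 0 h, with a mean of 9.79 to 11.19 on the PH 24 h arrays against 7.20 to 9.60. All 4 bile duct markers were higher (8.08 to 8.63 against 7.46 to 7.60), and 3 of 5 macrophage markers were lower (8.41 to 9.46 against 8.97 to 11.18), while Cd68 gave 1.23 ± 0.49 (adjusted p = 0.0689). Of 5 endothelial markers Stab2 (-0.97 ± 0.27) and Kdr (-0.87 ± 0.17) were lower, and of 5 stellate cell markers Reln (-0.88 ± 0.22). Of the 6 hepatocyte markers Tat and Hnf4a were lower, and the mean of the 6 was 14.04 to 14.08 against 14.19 to 14.21. Their part in the P450 falls was not tested. At 48 h all 4 markers of dividing cells were higher in PH than in sham at both ages, with means of 11.12 to 11.56 in young and 11.09 to 11.29 in old PH livers.

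Sham surgery without resection was set against 0 h as well. Averaged over the 3 times, young sham livers had 5 members higher and 5 lower than at 0 h, where 16.5% and 17.1% of all genes were. Higher were Cyp3a13, Cyp2d40, Cyp2j13, Cyp2b19 and Cyp2c65, and lower Cyp2d12, Cyp2d22, Cyp2c70 (-0.37 ± 0.11), Cyp2a12 and Cyp3a11 (-0.22 ± 0.08). Old sham livers had 4 higher (15.7% of all genes) and 2 lower (12.6%), among them Cyp2j13, Cyp2s1, Cyp3a44 (0.32 ± 0.12) and Cyp2d12. The young count was 5 without young 0 h replicate 1 and 6 without young sham 24 h replicate 2, and the old count 2 without old 0 h replicate 1 or 2. The sham arrays at 38 h, set against those at 24 and 48 h over both ages, gave no member that passed, where 0.577% of all genes did, and 2 members had an unadjusted p under 0.05.

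Age was compared next, with the supplier of the mice differing alongside it. At 0 h no member differed between old and young, where 0.236% of all genes did, nor did any after sham, where 0.0495% did. At an unadjusted p under 0.05, for which no share of all genes is given, 4 members differed in each comparison. After PH at 24 h, 6 members were lower in old than in young livers, where 2.87% of all genes were, and 1 was higher, where 4.52% of all genes were. Lower were Cyp1a2 (-1.60 ± 0.36), Cyp2f2 (-1.39 ± 0.31), Cyp2c50 (-0.99 ± 0.28), Cyp1a1, Cyp2c29 (-0.41 ± 0.10) and Cyp2e1 (-0.36 ± 0.11). The young and old PH 24 h arrays of Cyp1a2, Cyp2f2, Cyp2c50 and Cyp2c29, given above for the old, did not overlap. Young Cyp2c50 read 12.94, 13.08 and 13.20 and young Cyp2c29 13.79, 13.85 and 13.89. At 38 h Cyp3a11 alone was lower, where 1.51% of all genes were, and at 48 h none passed, where 0.0824% did (6 members at an unadjusted p under 0.05).

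This age difference at 24 h depended on the arrays. It was 0 members without young PH 24 h replicate 2 or old PH 24 h replicate 1, 1 without old replicate 2 (1.41% of all genes), 3 or 4 without young replicate 3 or 1 (1.82% and 3.68%), 13 (all lower) without old replicate 3, where 20.8% of all genes passed, and 10 (all lower) without the divergent pair, where 6.54% did. Fitting only the arrays compared gave 0 members at 24 h and at 38 h, and 0.0% of all genes at both. At 38 h it was 0 without any 1 of the young PH arrays or without old PH replicate 2 or 3, 2 without old replicate 1, and 1 without the divergent pair (0.786% of all genes), a member that was higher and not Cyp3a11. The difference between the ages in the response to PH relative to sham was tested directly, and no member passed at 24 h (0.0% of all genes), 38 h (0.0879%) or 48 h (0.0%). Unadjusted p was under 0.05 for 7, 4 and 2 members, again without a share of all genes at that threshold. At 24 h that difference was -1.48 ± 0.49 for Cyp2f2 (adjusted p = 0.459) and -1.50 ± 0.57 for Cyp1a2 (adjusted p = 0.489). At 38 h 1 member passed without old PH replicate 2.

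The members were also grouped by the receptor listed as inducing them. The list for CAR takes in Cyp2b9 and Cyp2b13 beside Cyp2b10, and induction was not tested here. Of the 6 members listed as CAR targets, Cyp2c29 was lower and Cyp2c55 higher in young PH 48 h than in sham. In old PH 24 h Cyp2c29 and Cyp2c37 were lower. In old PH 48 h Cyp2c29 and Cyp2b13 were lower. Of the 3 aryl hydrocarbon receptor targets, Cyp1a2 alone was lower than sham, in old PH 24 h. Of the pair listed as PXR targets, Cyp3a11 and Cyp3a13, only Cyp3a13 was lower, at young 38 and 48 h and old 24 and 38 h. Cyp2c55, a target of PXR as well, was counted under CAR alone. By position in the lobule, 4 of 5 measured pericentral members (Cyp2c37, Cyp1a2, Cyp2c29 and Cyp2e1) and the periportal Cyp2f2 were lower than sham in old PH 24 h. In young PH 48 h 2 of the 5 pericentral members, Cyp2e1 and Cyp2c29, were lower, and Cyp2f2 was not (-0.58 ± 0.35, adjusted p = 0.251). Of 5 measured members known to be higher in females, Cyp3a44 alone was higher (young PH 48 h) and Cyp2b13 alone lower (old PH 48 h) against sham.

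Transcription factors that control these genes, and other genes of drug metabolism, were taken as lists. Their counts are read against all genes, of which 11.1% were higher and 7.3% lower than sham in young PH 48 h, 7.51% and 3.8% in old PH 24 h, and 8.46% and 6.56% in old PH 48 h. Cebpb, the C/EBP gene that rises in regeneration and inflammation, was higher than sham in all 6 age and time pairs, by 0.91 ± 0.14, 1.03 ± 0.18 and 0.60 ± 0.14 in young and 0.70 ± 0.14, 0.92 ± 0.14 and 0.63 ± 0.14 in old livers. Sham livers were themselves lower than 0 h in Cebpb (-0.74 ± 0.11 young, -0.55 ± 0.11 old). Old PH livers did not pass against 0 h, with 0.22 ± 0.12, 0.26 ± 0.12 and 0.12 ± 0.12 at 24, 38 and 48 h. Cebpa, which sustains hepatocyte genes, was lower than sham, with -1.31 ± 0.19 in young and -1.33 ± 0.19 in old livers at 48 h and -1.34 ± 0.19 in old at 24 h, and young livers at 24 h gave -0.63 ± 0.19 (adjusted p = 0.113). Of 21 such factors measured, 8 were lower and 1 higher in young PH 48 h (medians over the list and all genes were -0.50 and -0.05), 4 lower and 2 higher in old PH 24 h, and 5 lower and 1 higher in old PH 48 h. Dbp, a clock-driven activator of P450 genes, was lower at 48 h, with -2.62 ± 0.78 in young and -3.07 ± 0.78 in old livers. In old livers it was -2.95 ± 0.78 at 24 h, and at 38 h 2.39 ± 0.78, which did not pass (adjusted p = 0.075). Against 0 h old PH livers gave -1.94 ± 0.70, -0.38 ± 0.70 and -2.43 ± 0.70 at 24, 38 and 48 h. The positive value at 38 h was thus seen against sham only. The genes of HNF4 alpha (0.03 ± 0.09 in young PH 48 h, -0.23 ± 0.09 in old PH 24 h), CAR (Nr1i3, -1.10 ± 0.46 in old PH 24 h, adjusted p = 0.115) and the aryl hydrocarbon receptor (Ahr, -0.95 ± 0.44 there) did not pass against sham. Nr1i2, the PXR gene, was higher than sham in young PH 38 h (0.94 ± 0.28), where sham is a single array, and in old PH 24 h (1.07 ± 0.22). Against 0 h the old PH 24 h difference was 0.50 ± 0.19 and did not pass (adjusted p = 0.0606).

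Among 12 measured genes of electron transfer and haem supply, Cyb5b (-1.27 ± 0.39) and Pgrmc1 (-0.35 ± 0.10) were lower than sham in old PH 24 h, and the haem synthesis gene Alas1 did not pass (-0.11 ± 0.39). In young PH 48 h Hmox1, which degrades haem, was higher (1.54 ± 0.51) and Cyb5r3 lower (-0.37 ± 0.13). The reductase gene Por is not represented by a probe set of its own symbol here. Of 35 conjugating and other drug-metabolizing enzymes, 8 were lower and none higher than sham in old PH 24 h, with a median of -0.48, led by Sult2a8 (-3.34 ± 0.89), Fmo1 (-2.16 ± 0.61) and Gsta3 (-1.99 ± 0.44). In young PH 48 h 7 were lower and 5 higher, with a median of -0.005: Gstm3 (2.12 ± 0.56) and Nqo1 (2.06 ± 0.33), targets of the stress factor Nrf2, rose most. The P450 genes of the other families numbered 30. In young PH 48 h 6 were lower and 3 higher, and in old PH 24 h 4 were lower and none higher, with list medians of -0.30 and -0.06 beside -0.40 and -0.41 for the 43. The 3 of 30 that were higher in young PH 48 h are near the share of all genes.

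A total of 6 members passed in none of the 23 comparisons through the probe set that stood for them: Cyp2b10, Cyp2c38, Cyp2c39, Cyp2d26, Cyp2j11 and Cyp3a16. The remaining 37 passed in at least 1, giving 174 calls, of which 77 held with each array of the groups compared left out in turn. For the 7 genes with further probe sets, a call could be set beside another probe set in 33 cases, and the other probe set had the same sign in 32 and also passed in 22, the exception in sign being Cyp1b1. Probe sequences were not examined, so signal shared between close relatives within the Cyp2c, Cyp2d and Cyp3a subfamilies cannot be separated. The probe sets of Cyp2c23 and Cyp2c65 carry the platform's suffix for probes that match several transcripts.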

How the data were processed

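Values are log2 signals that the authors normalised with RMA, per the submitters' processing notes, and deposited as 1 table of 45101 probe sets on 35 arrays. The RMA version is not given in the sources, nor is any batch, and the number of arrays limits the precision. Probe sets with 1 symbol in the platform annotation were kept (34945), control probe sets left out, and the probe set with the highest mean taken for each of 18193 genes.

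A limma model (version 3.58.1, R 4.3.3) took 1 mean per group over the 35 arrays, and the groups were compared in 23 contrasts with Benjamini-Hochberg adjustment over all genes. The fit was tested on simulated data. Figures used Python 3.11.15 and matplotlib 3.10.9. The members and lists were chosen with earlier results of these data known. Genes were named by a rule: the 8 members with the highest mean, up to 5 passing members with the largest change in each direction and comparison, a panel of well-known members, and up to 3 genes of a list. Members beyond it were named after their values were seen. Alternatives were other scalings, filters, probe set rules and fits, a replicate block, and leaving out arrays. Same-numbered arrays of different groups did not deviate together as a set (median correlation -0.002), so no pairing by number was seen. With so few arrays in a group, this check cannot exclude one.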

Additional observations from a re-analysis of the deposited data

Results flagged for a closer look

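Probe sets that carry more than 1 P450 symbol were outside the comparisons above, and 2 of them gave signals that differed from 0 h, and not from sham, past the threshold after PH in old livers, with p-values adjusted over all probe sets by limma. The probe set of Cyp2a5 and Cyp2a4, hydroxylases of coumarin and steroids, read 12.23, 13.19 and 12.76 at 0 h, 11.12, 11.82 and 8.97 in PH 24 h and 11.43, 10.32 and 10.89 in PH 38 h. All PH arrays of both times lay below the 0 h arrays, and the differences were -2.09 ± 0.55 (adjusted p = 0.00845) and -1.84 ± 0.55 (adjusted p = 0.0115). Against the matching sham arrays, which read 12.59 and 11.84 at 24 h and 11.79 and 12.06 at 38 h, it did not pass (-1.58 ± 0.61, adjusted p = 0.117, and -1.04 ± 0.61, adjusted p = 0.379). The lowest array, at 24 h, was replicate 3, which is not one of the divergent pair. The probe set of Cyp3a41b and Cyp3a41a, close relatives within the Cyp3a cluster, read 8.42, 8.25 and 8.26 at 0 h, a mean of 7.97 ± 0.03 (SD, n = 3) in PH 24 h and 8.09, 7.57 and 7.67 in PH 38 h. Its differences were -0.34 ± 0.12 (adjusted p = 0.0383) and -0.54 ± 0.12 (adjusted p = 0.00113), and against sham it gave -0.25 ± 0.13 (adjusted p = 0.246) and -0.40 ± 0.13 (adjusted p = 0.0967), neither passing. The 2 comparisons share the 0 h arrays, and which gene of a pair the signal comes from cannot be told apart.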

How the results depend on the processing

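Of the 174 calls on members, 161 held with arrays centred on their medians, 152 with quantile normalization repeated and 168 with the replicate block, and none reversed under any alternative. With the block, which does not rest on a pairing of the samples, young PH against sham at 48 h kept a count of 15. Fitting only the arrays compared gave 0 members for old PH against sham at 24 h and at 38 h, 17 at 48 h (24.8% of all genes passed), 3 for young PH against sham at 24 h (4.93%), 21 for young sham against 0 h (43.8%), and 0 for old against young PH at 24 h and 38 h. Pooling the shams of an age gave 24 and 15 for old PH at 24 and 38 h (28.8% and 13.4% of all genes), and 4 and 14 for young (6.16% and 17.7%). Leaving out genes under the median mean gave 12 for old against young PH 24 h (16.9% of the genes kept), 2 for old sham against 0 h (25.8%), 5 for young sham against 0 h (36.9%) and 1 for young PH against sham 38 h (8.86%). Repeated quantile normalization gave 4 for the last (6.61%) and 0 for old against young PH 38 h (2.23%). Without the divergent pair, old PH against sham at 48 h gave 16 (23.4%) and young at 24 h gave 1 (3.92%). The cause was not tested.

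With 1 array left out in turn, counts against sham ran from 2 to 17, 1 to 10 and 4 to 11 in old livers at 24, 38 and 48 h, and 0 to 0, 1 to 2 and 4 to 13 in young. Against 0 h they ran from 20 to 27, 14 to 27 and 10 to 14 in old PH, 7 to 8, 11 to 18 and 10 to 18 in young PH, 2 to 6 in old sham and 5 to 11 in young sham. Old against young ran from 0 to 13 at PH 24 h and 0 to 2 at 38 h, the response difference at 38 h from 0 to 1, and the other comparisons stayed at 0. The share of all genes that passed moved with the array left out too, and is not given for these ranges. The ranges show how the counts moved and are not set against a background.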
